A study of Homo sapiens with 18 samples.

Results

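The S100 proteins are small calcium-binding proteins of vertebrates, and 10 of their genes were followed here in head and neck squamous carcinoma cells in which the transcription factor EHF was raised or lowered. The 10 genes, S100A2, S100A4, S100A6, S100A7, S100A8, S100A9, S100A10, S100A11, S100A14 and S100A16, were chosen by name from the 23710 genes of the count tables, which hold 21 genes named S100. Each S100 protein carries paired EF-hand loops, mostly works as a dimer, and opens a binding surface for other proteins when calcium enters the loops. S100A8 and S100A9 pair as calprotectin, which withholds zinc and manganese from microbes and is abundant in neutrophils and in stressed squamous epithelium. S100A7 (psoriasin) is a secreted antimicrobial protein of skin, S100A10 and S100A11 bind annexins at membranes, and S100A2 is typical of the basal layer of squamous epithelium. EHF is an ETS-family factor of epithelia, and ETS factors bind DNA around a GGAA core.

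The study measured messenger RNA in 3 established human squamous carcinoma lines, A253 from a salivary gland and SCC25 and CAL27 from the tongue. A253 and SCC25 cells that overexpress EHF were grown with 1 ug of doxycycline, which switches the gene on, and were compared with control cells of the same line in regular medium, with 3 libraries a group in A253 and 2 in SCC25. CAL27 cells in regular medium carried an EHF knockdown, 1 of 2 kinds with 2 libraries each, and were compared with 2 control libraries. A CAL27 chromatin library for EHF and its input DNA were not analysed here. Doxycycline was absent from the A253 and SCC25 controls, so an effect of the drug and an effect of EHF cannot be told apart in those lines. Each line also appears to have had a medium of its own, though the growth notes only imply that of A253. Line and medium therefore cannot be told apart either. The CAL27 count table calls the kinds of knockdown "sh 64" and "sh 65" and the controls "sh Control", while the deposited TPM table exchanges the names sh 64 and sh 65 between the same libraries. The names below are those of the count table, and no label ties them to knockdown 1 or 2. The labels do not say whether replicates were separate cultures, so the p-values measure the spread between these libraries.

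Assigned reads per library ranged from 11090976 to 17823293 for A253, from 10728569 to 15965279 for SCC25 and from 7068155 to 19962159 for CAL27. EHF itself followed its labels. On the CPM scale (read counts relative to library size, with edgeR's TMM factors), it was 84.5, 91.4 and 83.2 in A253 controls and 765, 711 and 633 with overexpression, a log2 change of 3.02 ± 0.08 (SE). In SCC25 it was 461 and 420 CPM in controls and 860 and 892 with overexpression, a log2 change of 0.99 ± 0.06 (SE). In CAL27 it was 962 and 992 CPM in controls and 444 to 526 in the 4 knockdown libraries, a log2 change of -1.02 ± 0.06 (SE). All 10 squamous epithelial markers, such as KRT5, KRT14 and TP63, averaged at least 10 TPM (a level relative to all transcripts and corrected for gene length) in every group. Of 14 leukocyte markers, 12 averaged under 1 TPM in A253 and SCC25, as did 11 or 12 in CAL27, and the general leukocyte marker PTPRC stayed at or below 0.105 TPM in each library. The summed level of 10 fibroblast and endothelial markers was 2.97 to 4.97 TPM in A253, 6.42 to 13.9 TPM in CAL27 and 68.5 to 83.1 TPM in SCC25, and 0 rose and 1 fell in A253, 2 rose and 1 fell in SCC25, and 1 rose and 1 fell in CAL27.

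In control cells the family split into members at a like level in the 3 lines and members that varied widely between them. S100A2 was the most abundant in CAL27 at 2799 ± 76.6 TPM (SD, n = 2) and in SCC25 at 1732 ± 142 TPM (n = 2), where S100A9 at 1587 ± 150 TPM overlapped it. In A253 S100A6, also called calcyclin, led with 1882 ± 88 TPM (n = 3), ahead of S100A2 with 1466 ± 65.9 TPM. S100A10 and S100A11 followed in A253 with overlapping ranges around means of 1076 and 1071 TPM. S100A8 differed most between the lines, from 5.55 ± 1.01 TPM in A253 through 114 ± 19 TPM in CAL27 to 452 ± 38.2 TPM in SCC25, a ratio of 81.4 between the highest and the lowest line. The corresponding ratios were 54.6 for S100A9, 54.4 for S100A7, 7.30 for S100A14 and 3.06 for S100A10. The other 5 members stayed within a ratio of 1.60 to 1.94. For each of the 10 members the libraries of the highest line lay above those of the lowest line. These lines were picked by their means, with 2 or 3 libraries a line and no test. How many of all genes separate in this way was not counted, so this is not shown to be particular to the members.

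Toward the low end, S100A4, a partner of non-muscle myosin, lay between 18.1 TPM in CAL27 and 35.1 TPM in SCC25. S100A7 was the lowest member in A253 at 0.443 ± 0.308 TPM and in SCC25 at 24.1 ± 0.426 TPM. In CAL27 S100A7, at 20.5 ± 5.48 TPM, and S100A4, at 18.1 ± 2.95 TPM, overlapped. S100A14 ranked below S100A8 in CAL27, at 83.6 ± 3.16 TPM, and next after S100A11 in the other lines, at 534 ± 14.5 TPM in A253 and 610 ± 30.2 TPM in SCC25. S100A11 ran from 560 TPM in CAL27 to 1071 TPM in A253, and S100A16 from 295 TPM in A253 to 483 TPM in SCC25. In the middle of the CAL27 order, the ranges of S100A9, at 403 ± 65.3 TPM, and S100A16, at 363 ± 11.8 TPM, overlapped.

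**Figure D1:**
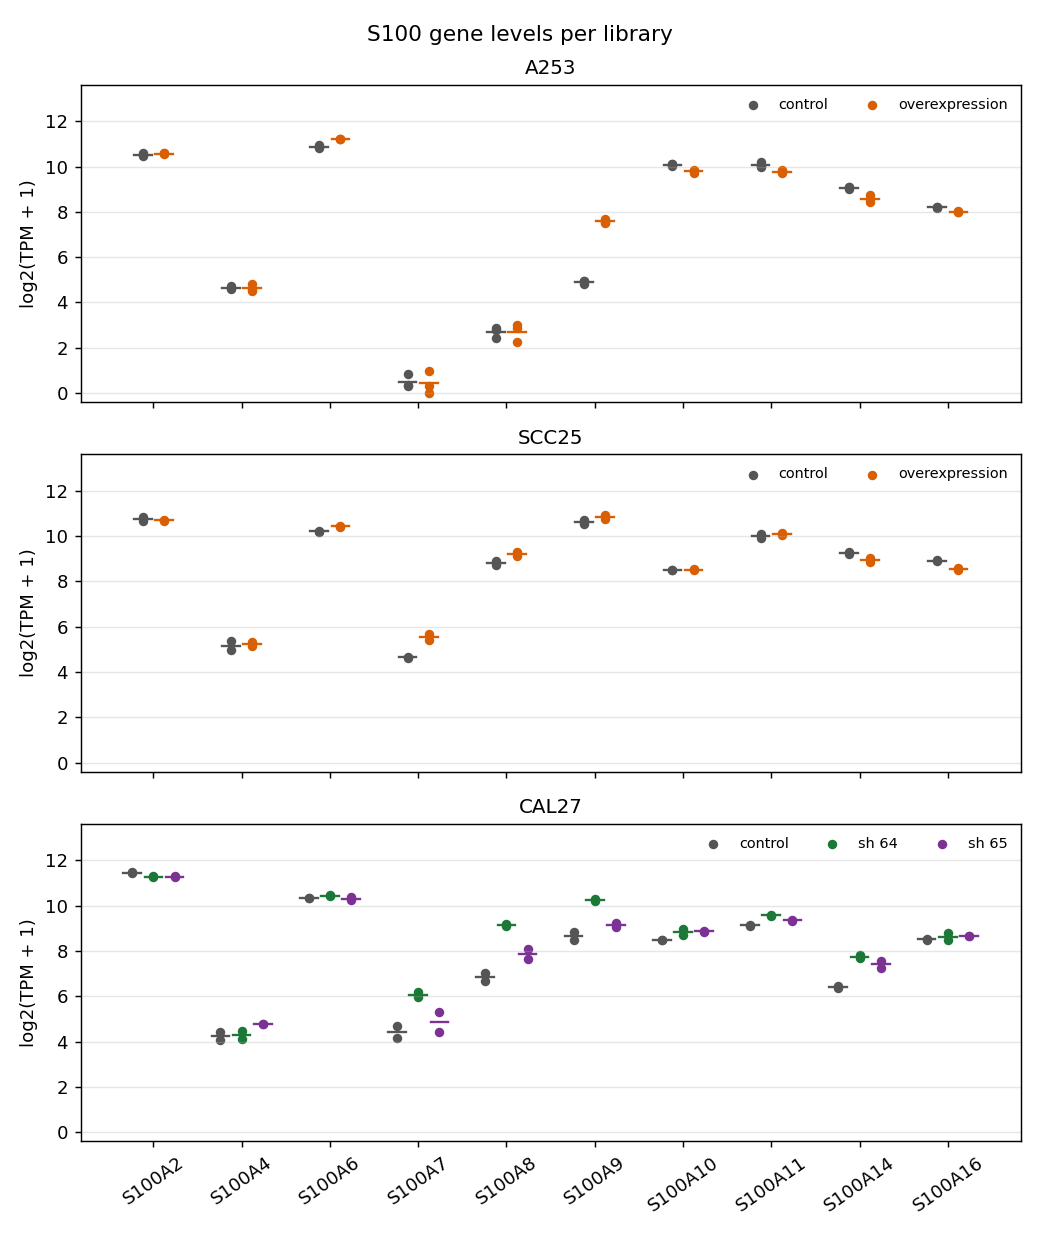
Level of each S100 gene in every library of the 3 lines, as log2(TPM + 1), with the group mean as a short line. S100A7, S100A8 and S100A9 sit lower in the A253 panel than in the SCC25 and CAL27 panels, while S100A2, S100A6 and S100A11 sit high in all 3 panels.

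The 4 members with the largest changes in any comparison were S100A9, S100A8, S100A7 and S100A14, and the 250 bases before their transcription starts are shown because EHF belongs to a family that binds GGAA. All 10 members matched the RefSeq promoter table (build GRCh38.p14), with 14 start sites in all, and all lie on chromosome 1. The S100A9 stretch is chr1:153357604-153357853 on the plus strand. The S100A8 stretch, for 1 of its 3 starts, is chr1:153391074-153391323, the S100A7 stretch is chr1:153460652-153460901 and the S100A14 stretch is chr1:153616326-153616575, these 3 on the minus strand. Each is written 5′ to 3′ along its gene, with GGAA or its complement TTCC in capitals.
S100A9: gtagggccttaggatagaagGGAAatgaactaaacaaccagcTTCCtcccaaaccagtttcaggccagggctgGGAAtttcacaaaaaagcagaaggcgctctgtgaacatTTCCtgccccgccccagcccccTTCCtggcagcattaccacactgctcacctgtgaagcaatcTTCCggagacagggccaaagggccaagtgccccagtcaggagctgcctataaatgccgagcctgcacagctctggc
S100A8: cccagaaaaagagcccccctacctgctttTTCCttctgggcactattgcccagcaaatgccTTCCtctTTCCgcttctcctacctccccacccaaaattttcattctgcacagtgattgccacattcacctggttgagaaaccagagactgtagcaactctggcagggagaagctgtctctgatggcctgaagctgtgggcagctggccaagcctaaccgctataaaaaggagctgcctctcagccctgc
S100A7: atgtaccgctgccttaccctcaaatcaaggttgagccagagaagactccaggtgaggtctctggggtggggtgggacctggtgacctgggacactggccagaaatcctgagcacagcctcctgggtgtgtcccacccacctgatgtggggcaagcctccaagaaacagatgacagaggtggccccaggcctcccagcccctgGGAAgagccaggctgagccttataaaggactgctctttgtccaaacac
S100A14: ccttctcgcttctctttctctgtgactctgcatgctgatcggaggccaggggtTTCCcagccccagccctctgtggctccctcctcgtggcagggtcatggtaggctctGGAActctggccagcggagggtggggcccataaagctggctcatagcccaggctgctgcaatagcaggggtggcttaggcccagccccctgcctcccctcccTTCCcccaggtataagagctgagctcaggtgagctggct
GGAA on either strand occurred 6 times in the S100A9 stretch, 3 times each in those of S100A8 and S100A14, and 1 time in that of S100A7. Of all 35116 promoters, 92.7% held at least 1 GGAA, with a median of 3, and 9.14% held as many as S100A9 or more. The longer form AGGAAG, searched on both strands and containing GGAA, occurred 2 times before S100A9 and 1 time before S100A8, and 28.7% of all promoters held it. CCGGAAGT, which also contains GGAA, occurred in 3.42% of all promoters and before none of the 10 members. TATAAA on the gene's strand, starting 40 to 18 bases before the start, occurred in 2.33% of all promoters, counted per start. It occurred in 4 members, at 29 bases for S100A9 and S100A8, 28 for S100A7 and 31 for S100A4. For S100A8 it occurred only before the start shown, and the stretches of its other starts held 4 and 1 GGAA. These matches describe letters in a window, and binding of EHF was not tested.

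Knockdown raised 6 of the 10 S100 genes in CAL27, and overexpression moved members in both directions in A253 and SCC25. In A253, 9 members had enough reads to test and 5 of them changed at an adjusted p under 0.05 in edgeR's quasi-likelihood test, against 7.97% of the 14503 genes tested. S100A9 and S100A6 rose, and S100A14, S100A10 and S100A11 fell. Without control replicate 1, 3 members passed, and over all 14563 genes tested 443 rose and 215 fell. Without overexpression replicate 3, 3 members passed, and over all 14831 genes tested 539 rose and 266 fell. In SCC25, 6 of 10 members changed, against 23.9% of 14120 genes, with S100A7, S100A8, S100A9 and S100A6 higher and S100A14 and S100A16 lower. The smallest of these changes were those of S100A9 and S100A6. With each SCC25 library left out in turn, their log2 changes ranged from 0.13 to 0.30 and from 0.15 to 0.27. In CAL27, with both knockdowns averaged, 6 of 10 members changed, against 18.8% of 13629 genes, and the 6 were higher, against 9.88% of genes higher. The 6 were S100A7, S100A8, S100A9, S100A10, S100A11 and S100A14. The median log2 change of the members tested was 0.02 in A253, 0.07 in SCC25 and 0.41 in CAL27, beside medians over all genes between -0.01 and 0.01. Tested on the deposited TPM with limma, CAL27 had 814 genes higher and 1178 lower in place of 1346 and 1214, and 5 members were then higher and S100A2 was lower.

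**Figure D2:**
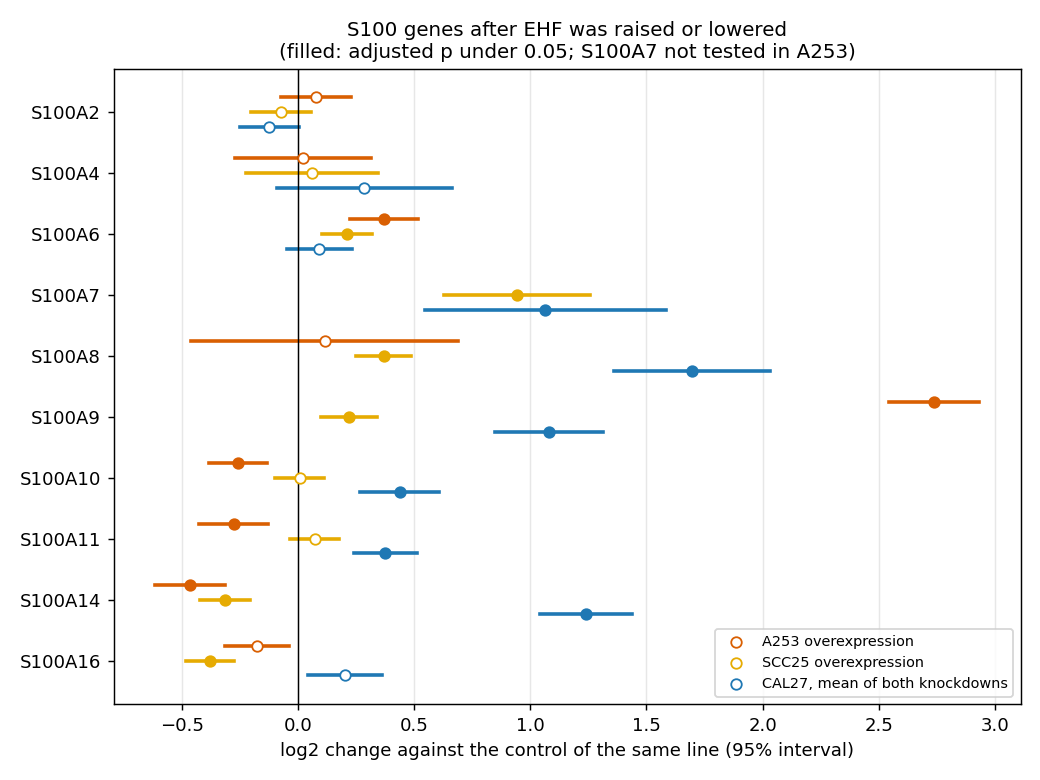
Log2 change of each S100 gene against the control of its line, with 95% intervals, for A253 overexpression, SCC25 overexpression and the mean of both CAL27 knockdowns. Filled points passed an adjusted p of 0.05. S100A9 in A253 stands alone near 2.74, and the CAL27 points of S100A7, S100A8, S100A9 and S100A14 lie between 1.06 and 1.70.

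S100A9, a calprotectin subunit, showed the largest change of any member in A253 while its partner S100A8 showed no detectable change. S100A9 was at 8.69, 7.42 and 8.93 CPM in A253 controls and at 59.2, 52.8 and 54.4 CPM with overexpression, so that every overexpressing library was above every control. The log2 change was 2.74 ± 0.09 (SE; 6.67-fold, adjusted p = 5.91e-12). S100A8 was at 1.15, 1.46 and 1.71 CPM in controls and at 1.71, 1.78 and 1.03 CPM with overexpression, and the groups overlapped. Its log2 change of 0.12 had a 95% interval from -0.46 to 0.69 (adjusted p = 0.894), resting on 14 to 32 reads a library. On the per-length scale, S100A9 exceeded S100A8 by 5.39 ± 1.26 times (SD, n = 3) in A253 controls and by 35.4 ± 11.1 times with overexpression. The leukocyte markers CD14, a co-receptor for bacterial lipopolysaccharide, and AIF1 rose along with S100A9 in A253, CD14 from 3.10 to 8.14 TPM and AIF1 from 4 to 81 reads over 3 libraries. The summed level of the 14 leukocyte markers was 7.37 to 7.94 TPM in A253 controls and 11.7 to 14.1 TPM with overexpression. In both groups 7 of the 14 had no reads at all, and PTPRC averaged 0.0395 TPM in controls and 0.0356 TPM with overexpression. In bulk samples, more cells of a type and more RNA per cell cannot be told apart.

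In SCC25, where the calprotectin genes were already abundant, both rose slightly. S100A8 was at 126 and 118 CPM in controls and at 148 and 166 CPM with overexpression, a log2 change of 0.37 ± 0.06 (SE; adjusted p = 3.37e-05). S100A9 was at 490 and 453 CPM in controls and at 518 and 580 CPM with overexpression, a log2 change of 0.22 ± 0.06 (SE; adjusted p = 0.00667). Neither gene's groups overlapped. The S100A9 call was lost without overexpression replicate 2 (log2 change 0.13, adjusted p = 0.303) and without control replicate 2 (0.16, adjusted p = 0.0662). The ratio of S100A9 to S100A8 on the per-length scale was 3.51 ± 0.0339 (SD, n = 2) in controls and 3.17 ± 0.00707 with overexpression. The leukocyte marker sum was 33.5 to 38.8 TPM in SCC25 controls and 42.9 to 50.4 TPM with overexpression, mostly CD14, whose log2 change was 0.41 (adjusted p = 0.00134), and its part in the S100 changes was not tested.

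The response of S100A9 to overexpression differed between A253 and SCC25 in a direct test. In a joint edgeR fit the SCC25 effect minus the A253 effect was -2.53 on the log2 scale (SE 0.12, adjusted p = 4.11e-11), when EHF's own effect also differed by -2.05. S100A11 was the other member to differ, by 0.34 (SE 0.10, adjusted p = 0.0489), so 2 of 10 members differed, against 5.63% of 15460 genes. The S100A11 call was lost under 10 of the alternatives tried, among them any single SCC25 library left out. The difference for S100A8 was 0.23 with a 95% interval from -0.27 to 0.74.

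In CAL27, knockdown raised both calprotectin genes, and neither was called lower in an overexpression line. S100A8 was at 27.2 and 35.4 CPM in controls, at 159 and 161 CPM in the sh 64 libraries and at 56.2 and 78.1 CPM in the sh 65 libraries. Averaged over both knockdowns its log2 change was 1.70 ± 0.15 (SE; 3.24-fold, adjusted p = 0.000104). S100A9 was at 106 and 137 CPM in controls, at 394 and 360 CPM with sh 64 and at 163 and 193 CPM with sh 65. Its log2 change was 1.08 ± 0.11 (SE; 2.12-fold, adjusted p = 3.71e-05), and all 4 knockdown libraries were above both controls for each gene. On the per-length scale, the ratio of S100A9 to S100A8 was 3.52 ± 0.0156 (SD, n = 2) in controls. With sh 64 this ratio was 2.14 ± 0.149, and with sh 65 it was 2.43 ± 0.275. None of the 14 leukocyte markers passed the test in CAL27, where their sum was 11.1 to 12 TPM in controls and 9.36 to 11.8 TPM in the knockdowns.

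**Figure D3:**
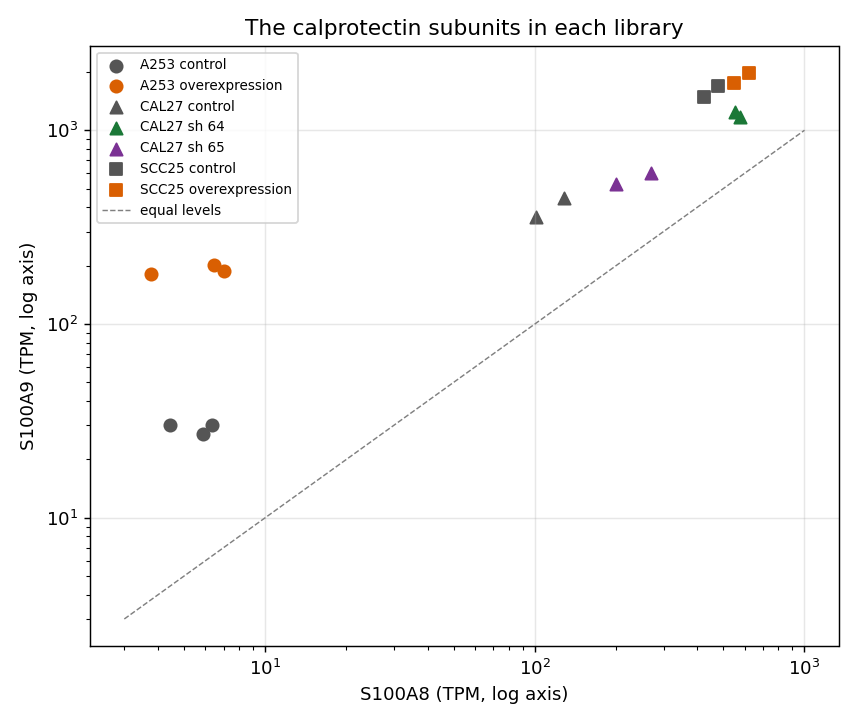
S100A9 against S100A8 in each of the 16 libraries, both in TPM on log axes, with symbols for the line and colours for the group. The A253 libraries with overexpression lie straight above the A253 controls at a like S100A8 level. The CAL27 and SCC25 libraries lie above the line of equal levels, with the CAL27 knockdowns nearer to it than the CAL27 controls.

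S100A7 was higher with EHF raised in SCC25 and with EHF lowered in CAL27. In SCC25 it was at 5.25 and 5.68 CPM in controls and at 9.53 and 11.2 CPM with overexpression, with no overlap, a log2 change of 0.94 ± 0.15 (SE; 1.92-fold, adjusted p = 5.21e-05). In CAL27 it was at 3.76 and 5.66 CPM in controls, 14.6 and 16.6 CPM with sh 64, and 4.72 and 9.44 CPM with sh 65, so that the sh 65 libraries overlapped the controls. The log2 change averaged over both knockdowns was 1.06 ± 0.24 (SE; adjusted p = 0.0082), and it lost its call without control replicate 1 (0.87, adjusted p = 0.0623) and with limma on the deposited TPM (adjusted p = 0.132). In A253 S100A7 had 1, 1 and 2 reads in controls and 3, 1 and 0 reads with overexpression, too few to test. S100A7A, a near-identical neighbour whose gene model overlaps that of S100A8 in the RefSeq table, had 29 reads over the 16 libraries, and how reads that fit both copies were assigned is not given in the sources used here.

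S100A14, an epithelial member, fell in both overexpression lines and rose in the knockdown line. In A253 it was at 286, 262 and 296 CPM in controls and at 185, 219 and 208 CPM with overexpression, a log2 change of -0.46 ± 0.07 (SE; 1.38-fold lower, adjusted p = 0.000427). In SCC25 it was at 336 and 331 CPM in controls and at 255 and 281 CPM with overexpression, a log2 change of -0.31 ± 0.05 (SE; 1.24-fold lower, adjusted p = 8.11e-05). In CAL27 it was at 46.9 and 45.6 CPM in controls, at 131 and 114 CPM with sh 64 and at 86.8 and 108 CPM with sh 65. The log2 change averaged over both was 1.24 ± 0.09 (SE; 2.37-fold, adjusted p = 2.06e-07). In none of the 3 lines did the groups overlap, and S100A14 was the only member called in all 3 lines with opposite signs for raised and lowered EHF.

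S100A16, whose gene lies next to that of S100A14 on the chromosome, had the same signs in edgeR's fits and passed there in SCC25. In that line it was at 260 and 272 CPM in controls and at 201 and 209 CPM with overexpression, a log2 change of -0.38 ± 0.05 (SE; adjusted p = 3.83e-06). In A253 its log2 change was -0.18, with a 95% interval from -0.31 to -0.04 and an adjusted p of 0.122, and its 3 overexpression libraries, at 132 to 147 CPM, lay below the 3 controls, at 148 to 165 CPM. With limma on the deposited TPM this fall passed (log2 change -0.20, adjusted p = 0.0287). In CAL27 the change was 0.20, with a 95% interval from 0.04 to 0.36 and an adjusted p of 0.069. It passed with no filter on low counts (adjusted p = 0.0338), without sh 64 replicate 1 (0.0114) and without sh 65 replicate 1 (0.0368). The SCC25 and A253 effects on S100A16 were not shown to differ (difference -0.22, 95% interval -0.40 to -0.03, adjusted p = 0.169).

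The annexin-binding members S100A10 and S100A11 moved by less than S100A14. S100A10, which joins annexin A2 at the plasma membrane, was at 579, 552 and 558 CPM in A253 controls and at 481, 469 and 465 CPM with overexpression, a log2 change of -0.26 ± 0.06 (SE; adjusted p = 0.0108). S100A11, a partner of annexin A1, was at 350, 290 and 308 CPM in A253 controls and at 257, 265 and 260 CPM with overexpression, a log2 change of -0.28 ± 0.07 (SE; adjusted p = 0.0185). Both A253 calls were lost without control replicate 1 (adjusted p = 0.095 for S100A10 and 0.176 for S100A11) or without overexpression replicate 3 (0.0513 and 0.0627), and that of S100A11 also without overexpression replicate 1 (0.0557). In SCC25 neither passed, with log2 changes of 0.01 (95% interval -0.10 to 0.11) for S100A10 and 0.07 (-0.03 to 0.18) for S100A11. In CAL27 both rose. S100A10 was at 191 and 196 CPM in controls, 286 and 230 CPM with sh 64 and 255 and 278 CPM with sh 65, a log2 change of 0.44 ± 0.08 (SE; adjusted p = 0.00108). S100A11 was at 169 and 178 CPM in controls, 244 and 240 CPM with sh 64 and 205 and 216 CPM with sh 65, a log2 change of 0.38 ± 0.06 (SE; adjusted p = 0.000503).

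Among 11 annexins and other intracellular partners of S100 proteins, all 11 could be tested in A253 and SCC25 and 10 in CAL27. In A253 1 rose, ANXA11, by 0.49 on the log2 scale (adjusted p = 9.49e-05). In SCC25 2 rose and 3 fell, among them ANXA11 at 0.28 and the S100A6-binding protein CACYBP at -0.34. In CAL27 2 rose, among them ANXA1 at 0.26, and none fell. The list's median log2 change was -0.09 in A253, -0.07 in SCC25 and 0.06 in CAL27.

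S100A6 rose with overexpression in both lines. It was at 614, 607 and 695 CPM in A253 controls and at 833, 782 and 860 CPM with overexpression, a log2 change of 0.37 ± 0.07 (SE; adjusted p = 0.00227). In SCC25 it was at 398 and 433 CPM in controls and at 478 and 484 CPM with overexpression, a log2 change of 0.21 ± 0.05 (SE; adjusted p = 0.00454), a call lost without overexpression replicate 2 (adjusted p = 0.0695). In CAL27 its log2 change with knockdown was 0.09, with a 95% interval from -0.05 to 0.23 (adjusted p = 0.369).

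S100A2 and S100A4 passed in none of these 3 edgeR comparisons with all libraries. S100A2 was at 650 to 762 CPM in A253 controls and 696 to 769 CPM with overexpression (log2 change 0.08, 95% interval -0.07 to 0.23), and at 788 and 934 against 834 and 803 CPM in SCC25 (-0.07, interval -0.20 to 0.06). Without SCC25 control replicate 1 the S100A2 change was -0.19 (adjusted p = 0.00063). In CAL27 S100A2 was at 1361 and 1451 CPM in controls and at 1251 to 1318 CPM in the knockdowns, without overlap. Its log2 change there was -0.12 (95% interval -0.25 to 0.00), with an adjusted p of 0.168 in edgeR and 0.034 with limma on the deposited TPM. S100A4 rested on 42 to 184 reads a library and had log2 changes of 0.02 in A253, 0.06 in SCC25 and 0.29 in CAL27, the last with a 95% interval from -0.09 to 0.66. In the RefSeq table the S100A4 gene overlaps S100A5, which had 49 reads over the 16 libraries, and whether the counting used strand is not given in the sources used here.

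The CAL27 knockdowns differed from each other in the antimicrobial members, while EHF itself did not pass the test between them. EHF was at 497 and 526 CPM with sh 64 and at 444 and 469 CPM with sh 65, a log2 difference of -0.16 with a 95% interval from -0.31 to -0.01 (adjusted p = 0.23). With sh 65 against sh 64, S100A8 was lower by a log2 difference of -1.26 ± 0.15 (SE; adjusted p = 0.00231), S100A9 by -1.09 ± 0.12 (SE; adjusted p = 0.00025) and S100A7 by -1.15 ± 0.26 (SE; adjusted p = 0.0224). These were 3 of 10 members, against 5.34% of 13629 genes, and the S100A7 call was lost without sh 64 replicate 1, sh 64 replicate 2 or sh 65 replicate 1 (adjusted p = 0.115, 0.126 and 0.0549). S100A14 differed by -0.33 (95% interval -0.55 to -0.12, adjusted p = 0.0679), which passed with no filter on low counts (adjusted p = 0.00561) and without sh 65 replicate 2 (-0.50, adjusted p = 0.000969). S100A10 differed by 0.04 (-0.15 to 0.23, adjusted p = 0.862). S100A4 was higher with sh 65, by 0.54 (95% interval 0.08 to 0.99, adjusted p = 0.186). S100A11 differed by -0.20 (adjusted p = 0.132) and S100A6 by -0.12 (adjusted p = 0.445). For S100A16 the difference was 0.05 (adjusted p = 0.831) and for S100A2 0.01 (adjusted p = 0.959).

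Against the controls, which both knockdowns share, sh 64 called 6 of 10 members, where 15.7% of genes were called. With sh 65, 5 of 10 were called, where 14.6% of genes were. For S100A8 the log2 change was 2.32 with sh 64 and 1.07 with sh 65, and for S100A9 it was 1.62 and 0.54. For S100A7 it was 1.64 (adjusted p = 0.000944) with sh 64 and 0.49 (adjusted p = 0.304) with sh 65. The sh 65 value for S100A7 was 0.93 (adjusted p = 0.00645) without sh 65 replicate 1 and -0.07 (adjusted p = 0.913) without sh 65 replicate 2. For S100A14 it was 1.41 and 1.08, for S100A10 0.42 and 0.46, and for S100A11 0.48 and 0.27. With sh 65, the call of S100A9 was lost without control replicate 1 (0.38, adjusted p = 0.0598), and that of S100A11 without either control replicate or sh 65 replicate 2 (adjusted p = 0.235, 0.0914 and 0.0772). With sh 64, the call of S100A10 was lost without control replicate 1 or sh 64 replicate 1 (adjusted p = 0.0625 and 0.117). LUM, a fibroblast marker, also differed between the knockdowns, at 9.74 CPM with sh 64 and 4.20 CPM with sh 65 (log2 difference -1.21, adjusted p = 0.00582). The summed level of 10 fibroblast and endothelial markers was 11 to 13.9 TPM with sh 64 and 6.42 to 8.23 TPM with sh 65, with 8 of the 10 under 1 TPM in each, and their part in the S100 difference was not tested.

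**Figure D4:**
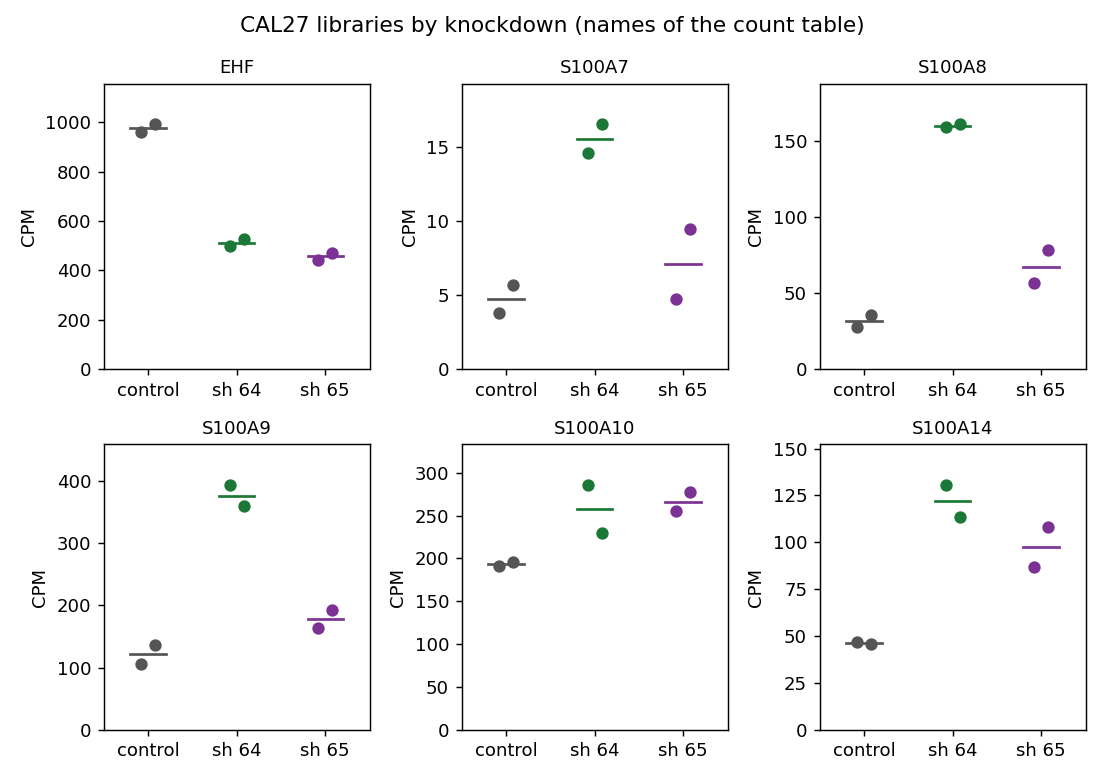
CPM of EHF and 5 S100 genes in each CAL27 library, with group means as lines and each axis starting at 0. S100A7, S100A8 and S100A9 are higher in the sh 64 libraries than in the sh 65 libraries. EHF is slightly higher in the sh 64 libraries than in the sh 65 libraries, and S100A10 overlaps between them.

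Summed over the 10 genes, S100 transcripts made up 0.638% of all TPM in A253 controls, 0.750% in SCC25 controls and 0.600% in CAL27 controls. The sum was 6383 ± 103 TPM (SD, n = 3) in A253 controls and 6528 ± 52.6 TPM with overexpression, and 7496 ± 144 TPM (n = 2) and 7889 ± 201 TPM in SCC25. In CAL27 it was 6005 ± 150 TPM in controls, 7546 ± 105 TPM with sh 64 and 6285 ± 202 TPM with sh 65. The make-up moved more than the sum. S100A8 and S100A9 together were 0.524% to 0.564% of the members' TPM in A253 controls and 2.85% to 3.20% with overexpression, and averaged 27.2% and 31.0% in SCC25. In CAL27 they averaged 8.60% in controls, 23.6% with sh 64 and 12.7% with sh 65, while S100A2 was 46.6%, 32.8% and 39.4%.

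**Figure D5:**
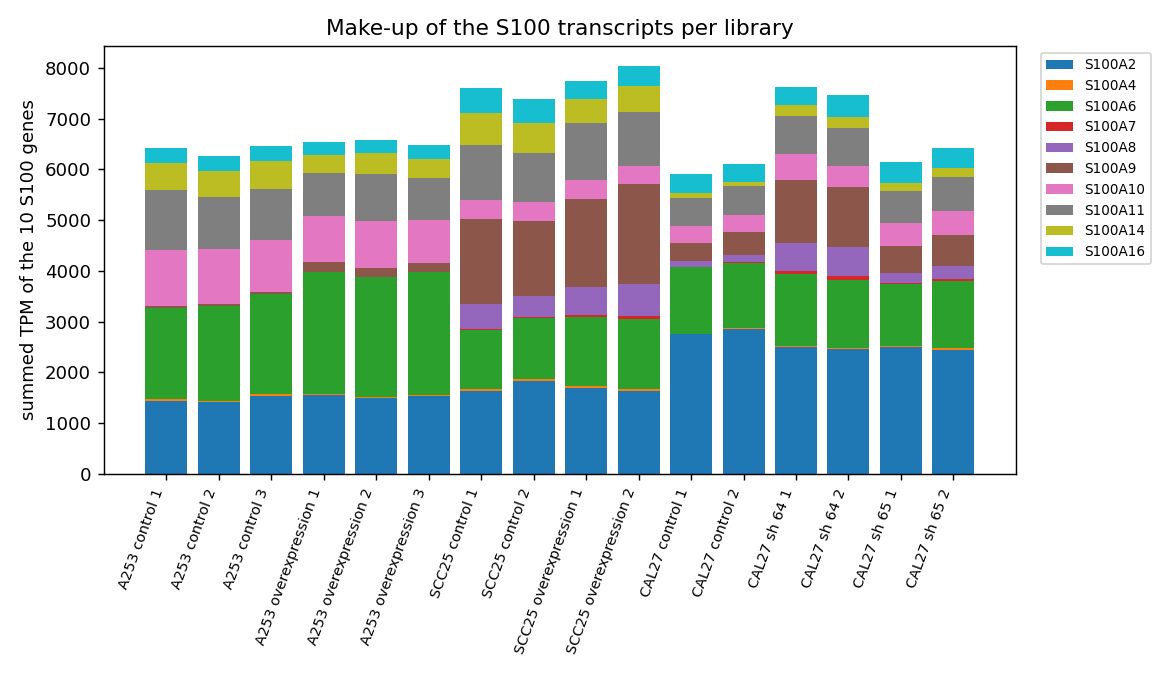
Summed TPM of the 10 S100 genes in each library, stacked by gene. S100A9 takes a large share in the SCC25 libraries and in the sh 64 libraries of CAL27, and S100A2 takes the largest share in CAL27 controls.

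Of the other 11 genes named S100, 5 to 8 averaged under 1 TPM in each group, and 3 or 4 could be tested in each line. S100P, a placental and mucosal member, rose in A253 by 0.66 on the log2 scale (3.64 to 5.57 CPM, adjusted p = 0.0302) and in SCC25 by 1.06 (2.74 to 5.68 CPM, adjusted p = 0.000326). S100A13, which helps export signal-less cytokines, fell in SCC25 by 0.18 on the log2 scale (adjusted p = 0.0313), and no other S100 gene passed in any line. S100A12, the neutrophil calgranulin whose gene lies between those of S100A9 and S100A8, had 3 to 24 reads summed over each group. Of 7 fused-type S100 genes, whose long proteins sit in the outer epidermis, RPTN rose in SCC25 (0.594 to 1.53 CPM, adjusted p = 0.0243) and FLG, the filaggrin gene, in CAL27 (0.933 to 4.23 CPM, log2 change 2.00, adjusted p = 0.000119).

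Of 7 receptors or scavengers of S100 proteins, 6 could be tested in each line. TLR4, a receptor for calprotectin, fell in CAL27 from 6.59 to 0.877 CPM, a log2 change of -2.94 (adjusted p = 2.96e-07), and had no reads in A253. AGER, the receptor RAGE, averaged at most 0.374 TPM in any group and passed in no line. CD36 rose in A253 by 1.24 and in SCC25 by 0.39 on the log2 scale (adjusted p = 0.0266 and 0.0267), and CD68, a lysosomal scavenger receptor, rose in A253 by 0.47 (adjusted p = 6.86e-05). ALCAM, an adhesion molecule that binds S100B, rose in SCC25 by 0.32 (adjusted p = 4.41e-05) and fell in CAL27 by 0.36 on the log2 scale (adjusted p = 0.000337). BSG, also known as EMMPRIN and a receptor for S100A9, rose in CAL27 by 0.25 (adjusted p = 0.00737).

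The squamous markers also moved. In A253 4 of 10 fell, with KRT17 at -0.58 and KRT14 at -0.33 on the log2 scale, where 426 of 14503 genes fell. In SCC25 5 rose, with TP63 at 0.58 and KRT17, which had fallen in A253, at 0.57, where 1728 of 14120 genes rose. In CAL27 7 rose, with KRT14 at 1.23 and KRT6A at 0.91, where 1346 of 13629 genes rose. KRT14 rose by 1.20 with sh 64 and by 1.26 with sh 65. Whether these shifts bear on the S100 changes was not tested.

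Over the 16 libraries, with log2 CPM centred within each line, S100A9 and S100A8 had a Pearson correlation of 0.475. Among the members compared, S100A9 was most like S100A6 (0.855) and S100A8 most like S100A14 (0.785). The genes whose pattern was most like that of S100A9, among 10089 compared, were CASP1 (0.97), PGD (0.957) and NIPAL3 (0.937). Those most like S100A8 were IL20RB (0.963), AIM2 (0.96) and NDRG1 (0.951). The libraries share their groups, so the values describe which genes rose and fell in the same groups, with no test.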

How the data were processed

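Messenger RNA was sequenced in 16 libraries of 3 cell lines. Reads were aligned to hg19 and counted per gene, with TopHat2 2.1.1, Bowtie 1.1.1, featureCounts 1.5.3 and DESeq2 1.12.4 among the tools named, per the submitters' processing notes. The values used are the raw gene counts deposited by the authors. The TPM deposited by the authors for A253 and CAL27 served to obtain gene lengths, which were equal between the 2 tables within 0.01 log2 units for 18450 of 18450 genes, and for an alternative test. TPM was recomputed from the counts with these lengths in all lines. The deposited SCC25 TPM table was not used. CAL27 genes were matched to the A253 table by row, since 696 of the 23710 names in the CAL27 count table were altered, 0 of them members.

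Counts were tested in R 4.3.3 with edgeR 4.0.16 (filterByExpr, TMM, robust quasi-likelihood, two-sided), 1 fit per line and a joint fit for A253 and SCC25, with Benjamini-Hochberg adjustment over all genes tested and a threshold of 0.05. Alternatives were DESeq2 1.42.0, its size factors in edgeR, no filter on low counts, a replicate block, limma 3.58.1 on log2(TPM + 1) or log2(TPM + 0.1), and leaving out each replicate. Where that left 1 library in a group, its spread was taken from the other groups. The fits were run on simulated counts in which all genes had 1 common spread, so spread that differs between genes was not tested. Replicate pairs differed beyond sampling noise.

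All 10 members are named in each comparison. From the 7 other lists, up to 3 genes that passed with the largest change are named, apart from 1 that is not reported here. Genes compared with S100A8 and S100A9 for likeness of pattern had a mean log2 CPM of at least 2 in every line, which S100A7 and S100A8 itself did not reach in A253. The members, lists and tests were chosen with earlier results of these data known, so they are not independent of them.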

Additional observations from a re-analysis of the deposited data

Results flagged for a closer look

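S100A9 responded differently to EHF overexpression in SCC25 and in A253, with a log2 difference of -2.53 (the SCC25 effect minus the A253 effect) in a direct test of the difference. S100A11 differed between the same lines by 0.34 in the same test, with an adjusted p of 0.0489 that rose above the threshold under 10 alternatives. S100A7, S100A8 and S100A9 differed between the CAL27 knockdowns, with log2 differences of -1.15, -1.26 and -1.09 for sh 65 against sh 64.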

How the results depend on the processing

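Of 767 values of single members under the alternatives, 686 kept their direction and their side of the threshold. Of the 33 member changes called among 69 tested, 22 kept their call under every alternative run, and 0 changed sign. Reversed values were of members that were not called. In A253, S100A4 (0.02 in edgeR) was -0.01 with limma on TPM at a pseudocount of 1 or 0.1 and without a filter (-0.014, -0.0148 and -0.014). In SCC25, S100A10 (0.01) was -0.00653 with no filter on low counts. Leaving out each replicate in turn gave ranges of -0.103 to 0.0891 for S100A4 and -0.0453 to 0.308 for S100A8 in A253, and of -0.193 to 0.0523 for S100A2, -0.0926 to 0.244 for S100A4 and -0.0295 to 0.0398 for S100A10 in SCC25. With sh 64 the range was -0.13 to 0.26 for S100A4, and with sh 65 it was -0.058 to 0.118 for S100A6 and -0.0749 to 0.925 for S100A7. For sh 65 against sh 64 it was -0.0238 to 0.0501 for S100A2, -0.0998 to 0.213 for S100A10 and -0.0952 to 0.199 for S100A16, and for SCC25 against A253 effects -0.115 to 0.22 for S100A4.

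Members past the threshold numbered 3 to 5 in A253, 3 to 6 for sh 65, 2 to 4 for sh 65 against sh 64 and 1 to 2 between the lines' effects when a replicate was left out. Over all genes the counts were then 658 to 1036 in A253, 2124 to 3639 in SCC25, 937 to 3038 for both knockdowns, 866 to 2876 for sh 64, 879 to 2026 for sh 65, 263 to 1048 for sh 65 against sh 64 and 318 to 936 between the lines' effects, where fewer libraries were tested. DESeq2 called 1540 genes in SCC25, 1461 for both knockdowns, 1191 for sh 64, 1170 for sh 65, 441 for sh 65 against sh 64 and 527 between the lines' effects. Between the lines' effects, 1 member passed with DESeq2 and 1 with its size factors in edgeR, S100A9. Limma on TPM without a filter called 561 genes in A253 and 855 in CAL27. The cause of these differences was not tested.

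Libraries with the same replicate number did not deviate together in every pair (correlations from -0.288 to 0.291), and in A253 not every library was closest to its own number, so the numbers are not taken as pairs. With the replicate block, 5 members and 1260 genes passed for sh 65 against sh 64, with S100A14 (adjusted p = 0.0451) and S100A11 (0.0425) gained. For both knockdowns 7 members and 3317 genes passed, with S100A16 gained (0.0158), and for sh 65 7 members and 2715 genes, with S100A4 (0.0346) and S100A16 (0.0211) gained. The block gave 1073 genes in A253, 3521 in SCC25 and 2968 for sh 64, with as many members as without it. S100A7 in A253 had too few reads to test.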
